A study of Mus musculus with 16 samples.

Results

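The subject here is the effect of a higher Dazl level at the stronger of 2 laser powers, 2.6 mW, in a KIN-CLIP experiment. KIN-CLIP is a form of iCLIP in which a pulsed femtosecond ultraviolet laser links an RNA-binding protein to the RNA under it for a chosen time, and the linked RNA is recovered and sequenced. All libraries came from 1 monoclonal derivative of GC-1 spg, a mouse cell line of spermatogonial origin, in which doxycycline switches on a Dazl transgene. The group with 4.2x Dazl and the group with 1x Dazl were each exposed at 2.6 mW for 30, 180 and 680 s, so the members are 6 of the 16 libraries, matched by time into 3 pairs. The 1 mW libraries of the same times and Dazl levels (6 libraries) served as the comparison set. The 0 s samples were not analysed here, and there is thus no measured background without light. Each condition was 1 library, the line was 1 clone carrying an induced transgene, and both Dazl levels received doxycycline induction as far as the labels say. The spread given below for library totals is therefore between the 3 time pairs and is not a spread between cultures.

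Dazl is a germ cell protein with an RNA recognition motif and a DAZ repeat through which it meets partner proteins. It binds mRNAs, mostly in their 3 prime ends at short motifs built around GUU, and it is known for holding up the stability and translation of mRNAs that spermatogonia and oocytes need. How much of the protein is on an RNA at a given moment depends on its concentration as well as on how quickly it binds and leaves, which is why a time course was taken at a pair of Dazl levels.

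The deposited value at a position is a whole number that the authors call normalized coverage. Intervals of all 12 libraries that lay at most 10 nt apart were joined into 8338 regions, 6798 of them (81.5%) exactly 17 nt long. The coverage of a region is the sum of the value over its positions, and the coverage of a gene is the sum over its regions, which gave 3202 genes, 3165 of them protein-coding. These sums have no length correction, so they rank how much coverage a gene carries and not how densely it is bound. Without strand, overlapping and antisense genes cannot be told apart, and less RNA of a gene cannot be told apart from less Dazl on it. No region was assigned to Dazl itself. Of 32 listed germ cell genes 3 were present (Mov10l1, Rhox13 and Sall4), each with a coverage between 2 and 4 in all 6 libraries. Through this list the germ cell identity of the line was hardly visible in these regions. Boll, a germ cell gene kept with the cytoplasmic RNA regulators and Dazl partners, had a mean coverage of 23.5 over the 6 libraries. At 2.6 mW and 4.2x Dazl, 0 of the 8338 regions were lower at 680 s than at 30 s, against 666 at 1x Dazl. Of the 1324 genes with a mean coverage of at least 30 over the 6 libraries, 209 (15.8%) had the identical whole value at 30 and 680 s with 4.2x Dazl, and 5 with 1x Dazl. The sources used here do not say which step left the values tied in this way, and all p-values take the libraries as independent.

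No genome sequence was used, but 150 regions lay inside windows of 250 bases before to 50 after a gene start (RefSeq, GRCm38.p6), and 113 of these were 17 nt long. Their sequences are shown because they reveal what sits at the middle of a region. All are read on the plus strand, and capitals mark positions 8 to 10, the centre. They are the 5 regions of lowest and the 5 of highest ratio of 4.2x to 1x at 30 and 180 s among windows with at least 10 at 680 s in both libraries, picked after their values were seen. The 5 lowest come first.
Ccdc151, chr9:22002775-22002791, gene on the minus strand: cctgcgtGTTcgctggc
Cd164, chr10:41519505-41519521, gene on the plus strand: tttctccCGGacgcctg
Dad1, chr14:54253895-54253911, gene on the minus strand: cgtgcgcGTTagcgggc
Canx, chr11:50325513-50325529, gene on the minus strand: ctggcggCTCcctcacc
Rtn4, chr11:29693703-29693719, gene on the plus strand: gctgcgcGTTacgcccc
The 5 highest follow.
Rtn4, chr11:29693574-29693590, gene on the plus strand: cggaggaCGAcgagcct
Ptpra, chr2:130450289-130450305, gene on the plus strand: gagagagGCTgcggcga
Smarcal1, chr1:72583247-72583263, gene on the plus strand: aaatgtaGTTcgacggt
Vcl, chr14:20929392-20929408, gene on the plus strand: ggggctaGTTacgccga
Appbp2, chr11:85235081-85235097, gene on the minus strand: gagcccaGTTccgtcca

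GTT stood at the exact centre of 53 of the 113 regions (46.9%), against 1.21% of all 17-base windows in the promoter table. AAC, its reverse complement, was at the centre of 0 regions, against 1.20% of all windows. The same plus-strand GTT was central in 25 of 53 regions of plus-strand genes (47.2%) and in 10 of 21 regions of minus-strand genes (47.6%), where the gene's own RNA would read AAC at that place. How the authors selected sites is not given, and whether the selection itself used the motif was not tested, so the central GTT is not read as a property of Dazl binding. Regions with and without it overlapped in their response to Dazl. At 30 s the 53 regions with a central GTT had a median ratio of 4.2x to 1x of 1.5 and the 60 others 1.66, and at 180 s these were 2.43 and 2.13. Both kinds appear in the printed sets. The Appbp2 region had a coverage of 25, 25 and 41 with 4.2x Dazl at 30, 180 and 680 s, against 1, 1 and 35 with 1x Dazl. The Dad1 region, also with GTT, had 40, 40 and 40 with 4.2x Dazl and 61, 39 and 37 with 1x Dazl. Regions of 1 gene start could part as well. In Rtn4, which encodes an endoplasmic reticulum shaping protein, the region without GTT had 14, 18 and 26 with 4.2x Dazl against 2, 1 and 24 with 1x Dazl, and the region with GTT had 1, 1 and 26 against 1, 1 and 17.

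Total coverage was higher with 4.2x Dazl in every pair, by less than the 4.2-fold of the protein and by the least at the longest exposure. At 30 s the total was 173943 with 4.2x Dazl and 92228 with 1x Dazl, a ratio of 1.89. At 180 s it was 185659 with 4.2x Dazl and 86071 with 1x Dazl, a ratio of 2.16. At 680 s it was 252932 with 4.2x Dazl and 204474 with 1x Dazl, a ratio of 1.24. The mean log2 ratio was 0.78 ± 0.42 (SD, n = 3 pairs), with p = 0.25 in an exact two-sided sign-flip permutation test, the smallest p that 3 pairs allow. The log2 ratio of the median gene was 0.68 in the pair of 30 s, 0.89 in that of 180 s and 0.28 in that of 680 s. These values lie below the log2 ratio of the totals, but gene ratios carry a pseudocount of 3 and the totals none. The measures are therefore unlike. Without a pseudocount the median region ratio was 1.95 at 30 s, 2.00 at 180 s and 1.27 at 680 s, not below the ratio of totals throughout. Genes hardly parted at 680 s. The SD of the gene log2 ratios around the median gene was 0.10 there, against 0.55 at 30 s and 0.48 at 180 s, over the 1324 genes of mean 30 or more. What distinguishes genes below thus comes almost wholly from 30 and 180 s.

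**Figure D1:**
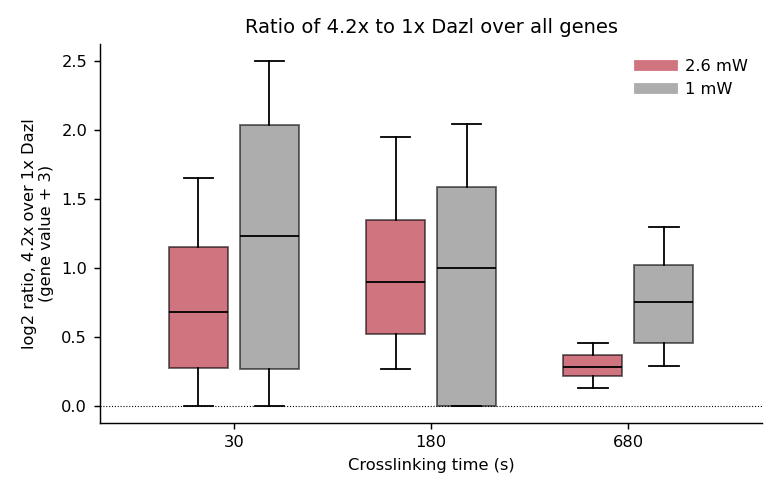
Log2 ratio of gene coverage (plus 3) with 4.2x over 1x Dazl for 3202 genes by crosslinking time, at 2.6 mW (red) and 1 mW (grey). Boxes span the quartiles with the median as a line, and whiskers run from the 10th to the 90th percentile; at 2.6 mW the medians are 0.68, 0.89 and 0.28, and the box of 680 s is the narrowest.

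Single regions did not all follow the total. With 4.2x Dazl, 6590 regions were higher, 854 equal and 894 (10.7%) lower than with 1x Dazl at 30 s. At 180 s 7831 were higher, 483 equal and 24 lower (0.288%), and at 680 s 8224 were higher, 114 equal and 0 lower. No region exceeded a ratio of 2 in the longest pair, while the highest was 42 after 30 s and 40 after 180 s.

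The response of a region differed with how much it carried at 1x Dazl, though not in 1 direction throughout. Since that level is also the denominator of the ratio, this is a description with no test. At 30 s the 1372 regions at 1 with 1x Dazl had a median ratio of 2, and 33.2% of them were not higher with 4.2x. The 1729 regions with 4 to 8 at 1x Dazl had a median of 17 with 4.2x Dazl and 6 with 1x Dazl, a median ratio of 2.80. The 1101 regions with 21 to 40 at 1x Dazl had medians of 34 with 4.2x and 26 with 1x Dazl and a ratio of 1.29, and 27.2% of them were not higher with 4.2x. At 180 s the 1215 regions with 2 or 3 at 1x Dazl had a median of 13 with 4.2x and 2 with 1x, and 57.4% of them had a ratio over 4.2. The 913 regions with 21 to 40 at that time had a median ratio of 1.54. Regions over 40 lay slightly above those of 21 to 40, at 1.35 after 30 s and 1.71 after 180 s. At 680 s the median ratio was 1.5 for the 851 regions with 2 or 3 at 1x Dazl, for which the listed values were mostly a step of 3 against 2, and 1.19 for the 3776 regions with 21 to 40.

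**Figure D2:**
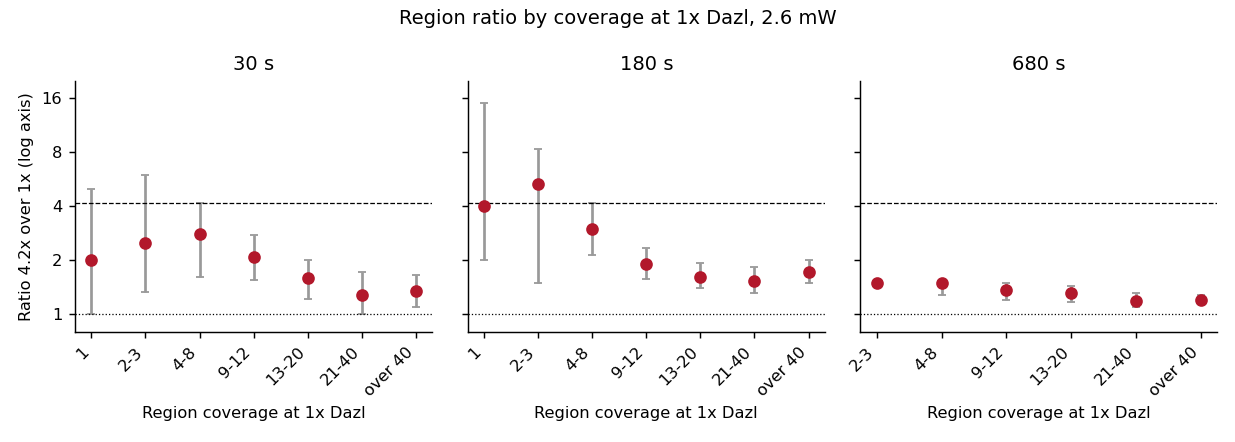
Ratio of region coverage with 4.2x over 1x Dazl (log axis) against the coverage at 1x Dazl, at 30, 180 and 680 s and 2.6 mW. Points are medians and bars the quartiles over regions; the dashed line marks 4.2, the dotted line 1, and at 180 s only the group of 2 to 3 has its median above 4.2.

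Set against the coverage reached with 4.2x Dazl at 680 s, used here as a ceiling, most genes were well short of it at 1x Dazl until the last time. Over the 1324 genes of mean 30 or more the median gene stood at 73.9%, 78.2% and 100% of the ceiling with 4.2x Dazl at 30, 180 and 680 s, against 37.9%, 35.9% and 81.0% with 1x Dazl. Between 30 and 180 s the 1x values did not climb: 783 of these genes (59.1%) were lower at 180 s. Genes at 80% or more of the ceiling after 30 s numbered 485 with 4.2x and 43 with 1x Dazl. Only Dap3 and Rbm7 stayed at 80% or more at both 30 and 180 s with 1x Dazl. At the other end 120 genes were at 20% or less with 1x Dazl at both times, and 32 of these had 60% or more with 4.2x Dazl at 30 s.

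The genes that gained most were almost bare at 1x Dazl at the short times and not at 4.2x. At 30 s they stood at 43.8% to 100% of their ceiling with 4.2x Dazl, against 3.03% to 12.1% with 1x Dazl, and at 680 s at 66.3% to 81.2% with 1x Dazl. They are the 12 of largest relative gain, the log2 ratio of coverage plus 3 minus that of the median gene, averaged over the 3 pairs, among genes of mean 30 or more on the same side of the median gene in all 3 pairs. They were chosen by these values, which are therefore a description. Values are given for 30, 180 and 680 s in that order. Trim56, a ubiquitin ligase of innate antiviral signalling (chr5:137111286-137116462), had 44, 52 and 66 with 4.2x Dazl, against 2, 2 and 49 with 1x Dazl. Its relative gain was 1.75 ± 0.28. Here and below, the ± after a gene's relative gain is the SE of the limma fit. It rests mostly on spread pooled over genes and does not show how far that gene's 3 pairs differed. The Dazl levels were far apart at the short times and close at 680 s, and both Trim56 regions were at 1 in the short 1x libraries. Anxa2, a calcium-dependent membrane-binding annexin, had 77, 81 and 110 with 4.2x Dazl against 6, 6 and 89 with 1x Dazl, a gain of 1.61 ± 0.37. Aco1, the cytosolic aconitase that also acts as an iron-regulated RNA-binding protein, had 63, 51 and 85 with 4.2x Dazl against 3, 5 and 62 with 1x Dazl, a gain of 1.60 ± 0.25. Zswim7, a factor of recombination repair, had 42, 44 and 96 with 4.2x Dazl against 3, 3 and 70 with 1x Dazl. These 4 genes have the same shape, low at both short times with 1x Dazl only.

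Psph, which makes serine from phosphoserine, had 69, 62 and 69 with 4.2x Dazl against 7, 6 and 56 with 1x Dazl, and was the 1 gene of the 12 already at its ceiling after 30 s with 4.2x. Sec23ip, a protein of endoplasmic reticulum exit sites, had 43, 41 and 57 with 4.2x Dazl against 3, 3 and 45 with 1x Dazl. Rbpj, the DNA-binding factor of Notch signalling, had 54, 62 and 81 with 4.2x Dazl against 9, 6 and 60 with 1x Dazl. The genes thus span signalling, metabolism and traffic. Elp3, the catalytic subunit of the tRNA-modifying Elongator complex, had 47, 50 and 83 with 4.2x Dazl against 9, 6 and 55 with 1x Dazl. The RNA cytosine methyltransferase Nsun2 had 57, 60 and 76 with 4.2x Dazl against 7, 14 and 60 with 1x Dazl. The other members, Myo1h (a class I myosin), Yipf6 (a Golgi membrane protein) and Zfp281 (a zinc finger transcription factor), gained 1.15, 1.13 and 0.98. Zfp281 was the last inside at 0.98 and Ap1g1 the first outside at 0.97.

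The 12 genes had few regions, and few of these lay near a gene end. They held 25 regions, 2 or 3 per gene, and 16 of the 25 were at 1 or 2 with 1x Dazl at 30 s. With 4.2x Dazl 1 region was at 1 or 2 at that time. Both counts come from the values that chose the genes, so nothing is read from them. Only 3 of the 25 regions (12%) lay within 1000 nt of a gene end, against 44.6% of 1718 regions in the 770 genes of mean 30 or more with 1 to 3 regions. The median distance to the nearer end was 4078 nt, against 1245 nt in those 770 genes. Across the 880 regions of the 248 genes that the relative test called above the median gene, the share near an end was 41.6%. The 12 genes that gained least were alike in this, with at most 2 regions each, 27.8% of regions near an end and a median distance of 1705 nt, and in the 15 genes called below the share was 21.1%. These shares were not tested.

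**Figure D3:**
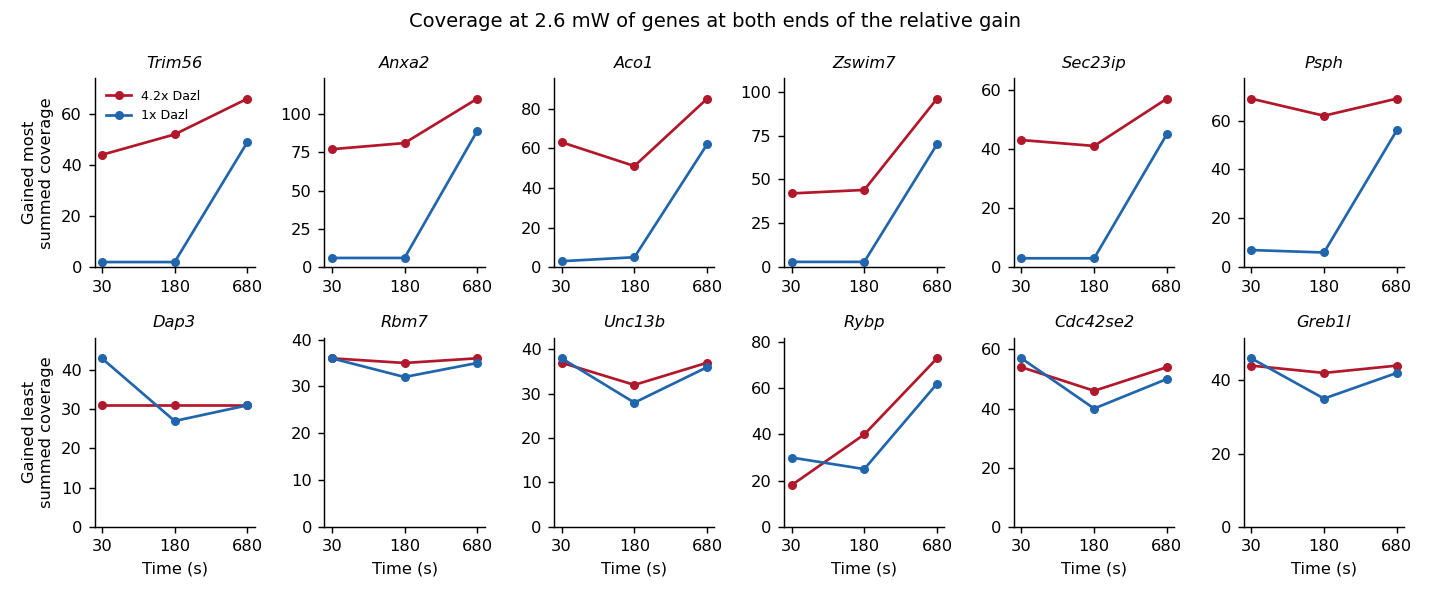
Summed gene coverage at 2.6 mW against crosslinking time (30, 180 and 680 s, evenly spaced) with 4.2x Dazl (red) and 1x Dazl (blue), 1 library per point. In the top row, the 6 genes of largest relative gain, the blue line is at 7 or less at 30 and 180 s; in the bottom row, the 6 of smallest, the blue line starts at or above the red one, and Rybp differs from the other 5 in that both lines end well above their start.

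The 12 genes of smallest relative gain were chosen by the mirror of the same rule. In all 12 the value at 30 s was at least as high with 1x as with 4.2x Dazl, and in 7 the 1x value at 30 s was already at or above the ceiling. Of these 7, Dap3 and Rbm7 kept 80% or more of the ceiling at 180 s with 1x Dazl, and the other 5 had 74.1% to 79.5%. Dap3, a protein of the small subunit of the mitochondrial ribosome (chr3:88920803-88951213), had 31, 31 and 31 with 4.2x Dazl against 43, 27 and 31 with 1x Dazl. Its 1x value at 30 s was 139% of the ceiling, and the Dazl levels overlapped. Rbm7, an RNA-binding subunit of the nuclear exosome targeting complex, had 36, 35 and 36 with 4.2x Dazl against 36, 32 and 35 with 1x Dazl. Unc13b, a vesicle priming protein, had 37, 32 and 37 with 4.2x Dazl against 38, 28 and 36 with 1x Dazl. Cdc42se2, a small effector of Cdc42, had 54, 46 and 54 with 4.2x Dazl against 57, 40 and 50 with 1x Dazl. In each of these 4 genes the largest gap in favour of 4.2x Dazl was at 180 s, where the 1x value dipped. Greb1l, Mib2 (a ubiquitin ligase for Notch ligands) and Aamp were likewise at or above their ceiling at 30 s with 1x Dazl and lower at 180 s. Aamp, a protein linked to cell migration, had 31, 31 and 31 with 4.2x Dazl and 38, 24 and 26 with 1x Dazl.

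The remaining 5 of the 12 were not at their ceiling at 30 s with 1x Dazl, and their coverage at 680 s was well above that at the shorter times at both Dazl levels. Rybp, a subunit of a Polycomb repressive complex, had 18, 40 and 73 with 4.2x Dazl against 30, 25 and 62 with 1x Dazl. Mat2a, the enzyme that makes S-adenosylmethionine, had 17, 25 and 64 with 4.2x Dazl against 17, 21 and 61 with 1x Dazl. Mtmr6, a phosphoinositide phosphatase, had 36, 35 and 75 with 4.2x Dazl against 43, 27 and 63 with 1x Dazl. The last of these is a sum of unlike regions: in Mtmr6 the region at chr14:60301861-60301877 had 34, 33 and 34 with 4.2x Dazl against 41, 26 and 30 with 1x Dazl. The region before it, at chr14:60301780-60301796, had 2, 2 and 41 with 4.2x Dazl against 2, 1 and 33 with 1x Dazl. Sh3pxd2b, a podosome scaffold, and Arhgap31, which inactivates Rac and Cdc42, were lower with 4.2x Dazl at 30 s only, at 16 against 23 and at 16 against 19. The 12 relative gains ran from -0.70 (Dap3) to -0.48 (Arhgap31), and Stk11 was next outside at -0.48. With 4.2x Dazl 7 of these 12 genes had the same value at 30 and 680 s, against 1 of the 12 that gained most and 15.8% of all genes of mean 30 or more. These values took part in choosing both sets, and no share was taken over genes with as few regions. Nothing is therefore read from the difference.

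Relative to the median gene, limma with Benjamini-Hochberg adjustment over all 3202 genes called 248 genes above it (7.75%) and 15 below it (0.468%). All 12 genes that gained most were among the 248 and 2 of the 12 that gained least among the 15 (Dap3, adjusted p = 0.0339, and Cdc42se2, adjusted p = 0.0413). These shares include the values that chose the genes, so nothing is read from them. The calls were not stable. None was left, in either direction, with a pseudocount of 1 (388 higher and 180 lower at an unadjusted p under 0.05), with genes of mean 30 or more alone (244 and 28), without the trend and robust settings (327 and 102), or with all 12 libraries in the fit (354 and 147). Without the pair of 30 s 4 were called above and 0 below, without the pair of 180 s none, and without the pair of 680 s 594 above and 455 below. Centring each pair on its library total in place of the median gene put the median of all genes at -0.14, against 0.02 with the median gene, and gave 73 above and 36 below, so that 67.0% of calls were above in place of 94.3%. On values as deposited limma called 0 genes (0%) in either direction, with 1816 higher and 0 lower at an unadjusted p under 0.05 and a lowest adjusted p of 0.0563.

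**Figure D4:**
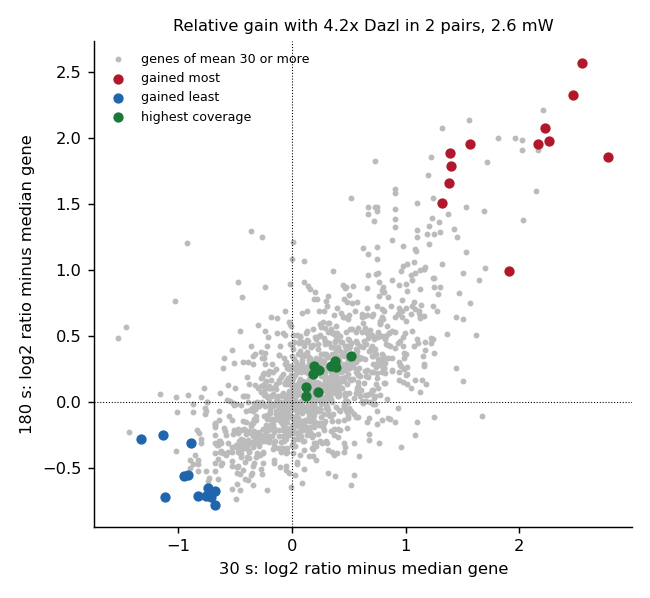
Log2 ratio of 4.2x over 1x Dazl minus the median gene at 30 s (horizontal) and 180 s (vertical) at 2.6 mW, 1 point per gene of mean 30 or more (grey, 1324 genes), with the 12 genes that gained most (red), the 12 that gained least (blue) and the 10 of highest coverage (green). The coloured sets were chosen by these or related values; the highest-coverage genes lie near the origin.

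The order of genes was alike at 30 and 180 s, with r = 0.68 over the 1324 genes, and hardly alike between 30 and 680 s (r = 0.13) or 180 and 680 s (r = 0.14). These are correlations across genes, which share libraries and pass through the same deposited values, so no p is given. In all 3 pairs 439 of the 1324 genes lay above and 161 below the median gene.

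The RNAs with the highest summed coverage lay slightly above the median gene in their response. Neat1, the noncoding RNA that builds paraspeckles, had 1308, 1469 and 1996 with 4.2x Dazl at 30, 180 and 680 s, against 627, 636 and 1615 with 1x Dazl. Its relative gain was 0.24 ± 0.07 (limma SE and limma adjusted p = 0.00841). Malat1, a noncoding RNA of nuclear speckles, had 1101, 1256 and 1999 with 4.2x Dazl against 604, 581 and 1639 with 1x Dazl, a gain of 0.14 ± 0.07 (adjusted p = 0.194). Thbs1, a secreted adhesive glycoprotein, had 1222, 1268 and 1593 with 4.2x Dazl against 600, 563 and 1280 with 1x Dazl. In these 3 RNAs coverage with 4.2x Dazl was higher in every pair and about level between 30 and 180 s with 1x Dazl. The gains of the 10 genes ran from 0.05 for the desaturase Scd2 to 0.29 for the proteoglycan Sdc4, and 4 of the 10 (40%) were called above (Neat1, Thbs1, Sdc4 and Tm9sf3), against 7.75% of all genes and 11.6% of genes of mean 30 or more. In all 3 pairs 8 of the 10 lay above the median gene and 0 below. The median gain of the 10 was 0.17, against 0.12 over genes of mean 30 or more. The SE was smaller for such genes, 0.07 for Neat1 against 0.35 for Dhh at a mean of 18.2, and its part in the share called was not tested. Gains this small could depend on the reference and on the pseudocount of 3, which lowers the ratios of low genes more. That of Canx was 0.09, -0.07 with centring on the library total and -0.006 with a pseudocount of 1.

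The sums hid wide differences between regions of 1 RNA. Over the 62 regions of Neat1 the ratio of 4.2x to 1x at 30 s ran from 0.667 to 27 with a median of 2.09, and 9 regions were not higher with 4.2x Dazl. At 680 s the same regions ran from 1 to 1.57. Over the 28 regions of Thbs1 the range at 30 s was 0.286 to 22. Actn1, which encodes an actin crosslinker, gained 0.73 ± 0.14 (adjusted p = 6.22e-05), and much of it came from 1 of its 5 regions. That region, chr12:80167932-80167948, had 61, 57 and 61 with 4.2x Dazl against 2, 2 and 42 with 1x Dazl. Its neighbour at chr12:80167888-80167904 had 15, 22 and 30 with 4.2x Dazl against 15, 8 and 29 with 1x Dazl, so close neighbours differed at 30 s.

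Gene lists of Dazl-linked functions and of general cell functions were read by how many members the relative test called and by their median gain. The medians to set them against are 0.02 over all 3202 genes and 0.12 over genes of mean 30 or more, and the shares of calls to set them against are 7.75% and 11.6%. No list had a member called below the median gene. Members that are named only because they passed the test were chosen after their values were seen, and all calls share the instability given above.

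RNA regulators were read as 3 lists, with the median of the splicing regulators above that background and the other medians near or below it. Of 25 cytoplasmic RNA regulators and Dazl partners present, 3 were called above (Celf1, Qk and Larp4) and the median gain was 0.07. Celf1, which binds GU-rich sites, had 361, 405 and 605 with 4.2x Dazl against 145, 135 and 475 with 1x Dazl, a gain of 0.45 ± 0.10 (adjusted p = 2.54e-04). Larp4, a protein of poly(A) and poly(A)-binding protein, had 155, 150 and 223 with 4.2x Dazl against 37, 42 and 174 with 1x Dazl, a gain of 0.75 ± 0.14 (adjusted p = 1.62e-05). Both were higher at 4.2x in every pair, and the gap was widest at 30 and 180 s. The lowest member of this list among genes of mean 30 or more was Dynll1, the dynein light chain that Dazl is known to contact, which had 102, 100 and 105 with 4.2x Dazl against 79, 65 and 84 with 1x Dazl (relative gain -0.19, adjusted p = 0.41). Of 16 mRNA decay and deadenylation factors 0 were called, with a median of 0.03. On values as deposited 7 of the 16 had an unadjusted p under 0.05, against 1816 of all 3202 genes, and Tnrc6b, a scaffold of microRNA silencing, was at 0.04 ± 0.11. Of 21 splicing regulators 4 were called above (Srsf1, Srsf6, Syncrip and Hnrnpa2b1), with a median of 0.22. Srsf1, an SR protein of exon definition, had 492, 536 and 713 with 4.2x Dazl against 226, 208 and 591 with 1x Dazl.

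Translation genes were read as separate lists of factors and ribosomal proteins. Of 16 translation factors 4 were called above (Eif4a1, Eef1a1, Eif2s2 and Eif3d; median 0.18), and of 22 ribosomal protein genes 0 were, with a median of -0.04, 5 members above the median gene in all 3 pairs and 7 below it. The difference between these lists was not tested. Eif2s2, a subunit of the initiation factor that carries the initiator tRNA, had 34, 28 and 60 with 4.2x Dazl against 5, 3 and 54 with 1x Dazl, a gain of 0.96 ± 0.28 (adjusted p = 0.0149). Eif4a1, the helicase that opens 5 prime leaders, had 122, 120 and 205 with 4.2x Dazl against 33, 38 and 170 with 1x Dazl. Rps3, of the small ribosomal subunit, had 253, 276 and 366 with 4.2x Dazl against 164, 176 and 309 with 1x Dazl (relative gain -0.12, adjusted p = 0.491). Ribosomal proteins, Eef1a1 and histones have near-identical copies, so their coverage is uncertain.

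Structural and folding genes carried much coverage and moderate gains. Of 35 cytoskeleton and extracellular matrix genes 6 were called above, with a median of 0.19. The collagen gene Col1a1 had 1082, 1146 and 1560 with 4.2x Dazl against 591, 509 and 1269 with 1x Dazl (gain 0.16, adjusted p = 0.123). Of 19 chaperones 2 were called above (Hsp90b1 and Hsp90ab1), with a median of 0.15. Hsp90b1, the Hsp90 of the endoplasmic reticulum, had 105, 157 and 265 with 4.2x Dazl against 36, 52 and 196 with 1x Dazl, a gain of 0.53 ± 0.13 (adjusted p = 0.00302). Its values with 4.2x Dazl kept climbing between 30 and 680 s, unlike those of Dap3 or Rbm7.

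The short lists held some of the largest single gains. Of 9 nuclear and small noncoding RNAs 3 were called above (Neat1, Rmrp and Gas5), with a median of 0.22. Gas5, a growth arrest RNA that hosts small nucleolar RNAs, had 62, 56 and 62 with 4.2x Dazl against 7, 5 and 56 with 1x Dazl, a gain of 1.29 ± 0.24 (adjusted p = 4.64e-05). It was at its ceiling at 30 s with the higher level and reached 90% of it only at 680 s with the lower. Of 12 cell cycle genes 2 were called above, Ccnd2, a D-type cyclin, with a gain of 0.47, and E2f1, a transcription factor of S phase entry, with 1.14 (median of the list 0.31). The Cdk inhibitor Cdkn1b had 88, 83 and 88 with 4.2x Dazl against 71, 59 and 75 with 1x Dazl (relative gain -0.29, adjusted p = 0.224). Of 9 stress and immediate early genes 2 were called above, Dusp6 and Atf4, and of 8 proteasome and ubiquitin genes 1 was, Psmb7. Of 4 replication-dependent histone genes H4c8 was called above. It had 33, 44 and 85 with 4.2x Dazl against 6, 3 and 81 with 1x Dazl, while H2ac8 had 59, 55 and 90 with 4.2x Dazl against 58, 36 and 84 with 1x Dazl (relative gain -0.39, adjusted p = 0.125).

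Of 22 markers of other testis cells 4 were present (Acta2, Wt1, Dhh and Kdr), which together had 83, 82 and 110 with 4.2x Dazl against 17, 10 and 77 with 1x Dazl. Dhh, a Sertoli cell hedgehog ligand, had 26, 21 and 35 with 4.2x Dazl against 2, 1 and 24 with 1x Dazl, and it and the smooth muscle actin Acta2 were called above. Their part in the results was not tested. The 3 genes of the germ cell list had a median of -0.35 in relative gain, at values of 2 to 4 where a change of 1 unit decides the ratio.

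**Figure D5:**
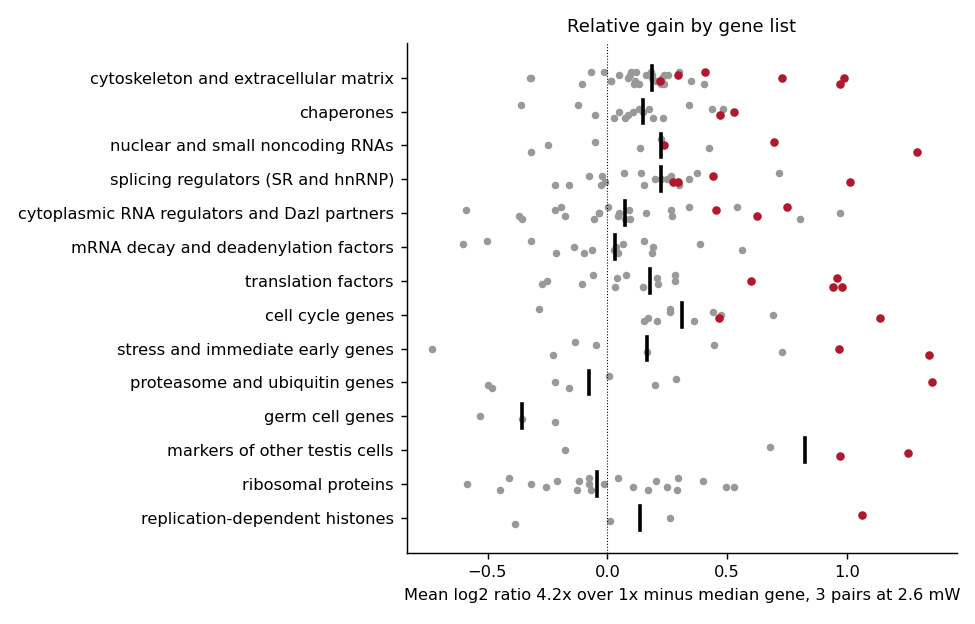
Mean log2 ratio of 4.2x over 1x Dazl minus the median gene over the 3 pairs at 2.6 mW for each member present of each list (points, red where the adjusted p is under 0.05) with the list median (black bar). Most list medians lie between 0 and 0.31; those of the ribosomal, proteasome and germ cell lists are below 0, and that of the markers of other testis cells is the highest.

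The Dazl effect on total coverage was smaller at 2.6 mW than at 1 mW in these libraries. At 2.6 mW the mean log2 ratio was 0.78 ± 0.42, and at 1 mW 1.79 ± 0.74 (SD, n = 3 pairs each), a difference of -1.01. An exact two-sided permutation test over the 20 splits of the 6 ratios gave p = 0.2, where 0.1 is the smallest possible. Genes of mean 30 or more with a ratio over 4.2 numbered 71, 93 and 0 at 30, 180 and 680 s with 2.6 mW, against 928, 800 and 9 with 1 mW. At 1 mW and 1x Dazl 74.0% of regions at 30 s and 80.5% at 180 s stood at a coverage of 1, so ratios there rest on the lowest listed value.

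Among genes of mean 30 or more, the relative gains at the stronger laser had little relation to those at the weaker one. Over the 1324 genes the relative gains at 2.6 and 1 mW had r = -0.07, a description across genes. At 1 mW, whose libraries did not choose the genes, 7 of the 12 that gained most at 2.6 mW and 10 of the 12 that gained least were above the median gene of 1 mW. The share over all genes of mean 30 or more was 85.9%, and over the 154 of them called above at 2.6 mW it was 86.4%. With genes of lower mean included, the share was 51.2% over all 3202 genes and 77.8% over the 248 called above. Of the 15 called below, 6 were above the median gene of 1 mW. A mean of 30 or more was held by 154 of the 248, against 1324 of all 3202 genes. Trim56 had 11, 10 and 45 with 4.2x Dazl against 2, 2 and 14 with 1x Dazl at 1 mW, and Zswim7 had 4, 5 and 48 against 3, 3 and 30. The difference itself, relative gain at 2.6 mW minus that at 1 mW, was called positive for 0 of 3202 genes (0%; 405 at an unadjusted p under 0.05) and negative for 6 (0.187%). These 6, Lrrc28, Ankrd12, Foxp1, Ube2z, Dynll2 and Pdap1, were named after their values were seen. All had a negative relative gain at 2.6 mW and a positive one at 1 mW. Foxp1, a forkhead transcription factor, had 103, 107 and 115 with 4.2x Dazl against 85, 78 and 106 with 1x Dazl at 2.6 mW. At 1 mW it had 31, 25 and 83 with 4.2x Dazl against 2, 2 and 23 with 1x Dazl. These calls depended on the setting too: 0 were left when only regions in exactly 1 gene counted (400 positive and 366 negative at an unadjusted p under 0.05), and with time as a block 229 were positive and 30 negative. With centring on the library total 340 were positive and 25 negative, so the prevailing direction turned in both.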

How the data were processed

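KIN-CLIP coverage was read from 12 files, 1 per library, with no header. The deposited values are a score, called normalized coverage by the authors, of 1 to 24 per position. The tools named in the submitters' processing notes are Bowtie2 and FastQC, and the build is mm10. Tool versions, how reads were counted and normalized, and the site selection were not given in the sources used here. Depth in reads is unknown, so no counting interval is given.

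Regions were placed in RefSeq gene spans (GRCm38.p6): 7592 lay in 1 gene and 245 in 1 coding gene of several, and 314 in several and 187 in none were left out. Gene log2 ratios (pseudocount 3, which understates changes of low genes) were fitted with limma 3.58.1 (R 4.3.3, eBayes with trend and robust settings, adjusted p threshold 0.05) for 3 pairs, after subtraction of the median gene, with 2 residual degrees of freedom, so p-values rest mostly on spread pooled over genes. Totals were compared with exact permutation tests. The fits were tested on simulated data.

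Genes named are the 10 of highest mean, the 12 of highest and 12 of lowest relative gain among genes of mean 30 or more on 1 side of the median gene in all pairs, and from each list the 3 of highest mean plus, where at least 6 members had a mean of 30 or more, the highest and lowest of those. Members and lists were chosen with earlier results of these data known. A linker histone gene, H1f0, was taken off the histone list after its values were seen because it is not replication-dependent. Alternatives were the pseudocount, the filter, region joining and assignment, the eBayes setting, centring, the libraries fitted and each pair left out.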

Additional observations from a re-analysis of the deposited data

Results flagged for a closer look

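A test of the difference between laser powers set 6 genes apart: their relative gain with 4.2x over 1x Dazl was smaller at 2.6 mW than at 1 mW (limma, adjusted p between 0.0116 and 0.0492, 3 pairs at each power). The difference was -2.17 for Lrrc28, which has 1 region that also lies in another gene's span. It was -1.82 for Ankrd12, which also has 1 region. It was -1.67 for Foxp1, -1.61 for Ube2z, -1.60 for Dynll2 and -1.48 for Pdap1. In all 6 genes the mean relative gain was negative at 2.6 mW (-0.45 to -0.28) and positive at 1 mW (1.17 to 1.88). In Lrrc28 the coverage at 2.6 mW was 83, 83 and 83 with 4.2x Dazl at 30, 180 and 680 s against 51, 69 and 80 with 1x Dazl. At 1 mW it was 41, 33 and 53 with 4.2x Dazl against 1, 1 and 11 with 1x Dazl. The 1x values at 1 mW are at or near the lowest listed value in the short libraries of all 6 genes (Ube2z had 7 and 5, and Dynll2 6 and 5, each over 5 regions), and their part in the difference was not tested.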

How the results depend on the processing

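The ratio of library totals kept its direction in each alternative run, with a mean log2 ratio of 0.61 to 1.01 with 1 pair left out, and 0.62 by the median over genes. The difference between laser powers ran from -1.20 to -0.82 with 1 pair left out and was -0.38 by the median over genes. On values as deposited limma called 0 genes, and 802 with genes of mean 30 or more alone, 1054 with all 12 libraries, and 0 to 564 with 1 pair left out, 564 being without the pair of 680 s. Relative to the median gene 263 genes were called in both directions together. This became 109 with centring on the library total, 0 with a pseudocount of 1, with genes of mean 30 or more, without trend and robust settings or with 12 libraries, and 0 to 1049 with 1 pair left out. For the difference between laser powers, 6 calls, all negative, became 78 with a pseudocount of 10 (39 positive and 39 negative), 11 with genes of mean 30 or more (all negative), 259 with time as a block (229 positive, 30 negative) and 365 with centring on the library total (340 positive, 25 negative), so the prevailing direction turned in the last 2 of these. They became 0 with regions in exactly 1 gene, 0 without trend and robust settings (406 positive and 359 negative at an unadjusted p under 0.05), 0 without centring (111 and 495), and 0 to 1481 with 1 pair left out. The cause was not tested. The 12 genes that gained most and the 12 that gained least kept their direction in the 11 alternatives fitted, but the choice by these values fixes much of that. Of the 12 that gained most 12 were called with a pseudocount of 10, and 0 with a pseudocount of 1. Depth in reads is unknown, values are whole numbers with a lowest listed value of 1, and ratios of low regions are therefore coarse.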
